A study of Taeniopygia guttata with 169 samples.

Results

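Methylmercury (MeHg), an organic form of mercury, was compared with a control diet in bone marrow of zebra finches labelled cohort 1. Every library labelled cohort 1 with a column in the deposited table was taken, 73 in all, each counted as 1 bird, and the other 88 libraries of the table are labelled cohort 2. They were 38 control birds and 35 birds given food with MeHg at 1.2 ppm. Ages at euthanasia were 6, 18, 35 and 90 days. Control and MeHg birds numbered 10 and 7 (day 6), 9 and 12 (day 18), 8 and 8 (day 35), and 11 and 8 (day 90). Both treatments held both sexes at each age, 17 females and 21 males in controls and 17 females and 18 males with MeHg. The design text speaks of breeding finches whose exposure history differed, and neither what a cohort is nor which history a bird has is labelled. The labels name no allele, strain or further agent for either treatment, and no label says outright that libraries come from different animals, so the p-values speak only for the spread among these libraries.

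MeHg passes through membranes and binds the sulphur and selenium groups of proteins, and it is known as a toxicant of the nervous and immune systems. In birds the marrow forms red cells, which keep their nucleus, along with thrombocytes and leukocytes. The series asks, by its title, about telomeres and genome stability after early exposure. Genes carry Ensembl identifiers that neither the files nor the reference table pair with symbols, so genes of telomere upkeep, DNA repair or metal defence could not be told from others, and the tissue label could not be checked against marker genes. In whole marrow, fewer cells of a type and less RNA per cell cannot be told apart.

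Titles carry a code such as C10 or Hg13. In cohort 1 there were 11 control and 9 MeHg codes, each in 1 treatment and each with 1 to 7 birds. Of these, 10 control and 7 MeHg codes had birds at 2 or more ages. The labels do not say whether birds with 1 code were siblings or cage mates. Treatment can thus not be told apart from membership in a set of codes. The code entered the fit as a random effect with 1 correlation shared by all genes. This allows for an average resemblance within codes, and may allow too little in genes whose own correlation is higher. The correlation of birds within codes was 0.117 as a consensus over all genes. For single genes it had a median of 0.114, with 25% of genes under 0.0088 and 25% over 0.228.

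Assigned reads per library ranged from 4572638 to 14734247 (median 7649368). The first principal component held 24.9% of the variance, and age alone explained 92.6% of it and treatment 0.499%. No difference between treatments passed in permutation tests on age-centred total reads, RNA integrity (RIN) and reads held by the top 3 genes (two-sided, 100000 resamples; adjusted p = 0.777, 0.777 and 0.994). Mean RIN was 8.48 in 28 MeHg birds and 8.43 in 28 control birds, while the age-centred difference was -0.129 (MeHg minus control). By age the MeHg and control means were 7.55 and 7.46 (day 6), 8.63 and 8.9 (day 18), 8.82 and 9.06 (day 35), and 8.78 and 8.96 (day 90). Birds were spread over 11 plates, of which plate H held MeHg birds alone and plate D a control bird alone. The 3 libraries farthest from their group on the first 2 components were a control of day 6, a control of day 35 and a MeHg bird of day 18. With these 3 libraries left out, 285 genes were called over the mean of the ages, among them all of the 190 called with every bird.

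Averaged over the 4 ages, MeHg and control birds differed in 190 of 14042 genes, or 1.35%. Of these, 89 were lower and the others higher with MeHg (limma on log2(value + 1), Benjamini-Hochberg adjusted p under 0.05, sex and plate as covariates). Each library's read counts had been divided by its own size factor, which gives the normalised counts used here, and fold changes on the log2(value + 1) scale understate changes of weakly expressed genes. The median size of the difference was 0.70 on the log2 scale, against 0.09 over all genes tested, and 55 genes differed at least 2-fold. With each bird taken as independent 593 genes were called, or 4.22%, and the 190 were all among them. With 1 mean per title code 58 genes were called, of which 55 were among the 190, or 28.9% of that list. Extraction batch in place of plate kept 84 of the 190 (44.2%). The smaller set of birds with a RIN kept 69 (36.3%).

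The called genes were lower in level and more variable than the rest, which is a description, since the test itself depends on both quantities. Their median level was 6.10 on the log2 scale, against 7.42 for all genes tested, and their median SD within treatment-by-age groups was 0.62 against 0.45. An SD over 1 was found in 42 of the 190, or 22.1%, and in 9.46% of all genes. The correlation within title codes had a median of 0.194 among the 190 and 0.114 among all genes, and it exceeded 0.3 in 24.2% and 14.1%. In size the higher and the lower genes were alike, with median differences of 0.70 and 0.71.

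ENSTGUG00000003473 had the largest rise among called genes with an average level of at least 5 on the log2 scale. Its function is not annotated here. In control birds its lowest, median and highest values were 2.03, 20.9 and 45.3 normalised counts (day 6), 11.3, 45.1 and 78.8 (day 18), 15.5, 21.5 and 56.6 (day 35), and 8.53, 25.8 and 45.2 (day 90). In MeHg birds they were 22.95, 43.4 and 49.8 (day 6), 22.2, 65.8 and 148.02 (day 18), 70.6, 108.3 and 147.6 (day 35), and 29.5, 66.6 and 144.8 (day 90). The MeHg median was the higher at every age, and at day 35 the lowest MeHg bird stood above the highest control, while the groups overlapped at the other ages. The mean log2 difference was 1.31 ± 0.23 (SE; limma, adjusted p = 0.000648). At single ages the gene did not pass, day 35 included (limma, adjusted p = 0.667, 0.392, 0.0547 and 0.371 in order of age). Values were compared within the 7 plates that held at least 2 birds of each treatment, after age and sex were removed. MeHg birds were higher in 7 of 7, by 0.61 to 2.11 on the log2 scale. Choosing genes by their difference in these same birds favours such agreement between plates, for this gene and the next ones.

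ENSTGUG00000028872 rose too, by 1.29 ± 0.29 on the log2 scale (SE; limma, adjusted p = 0.00957). Control birds had lowest, median and highest values of 26.4, 50.03 and 92.2 normalised counts (day 6), 28.9, 45.3 and 96.8 (day 18), 1.16, 64.3 and 102.3 (day 35), and 2.06, 63.4 and 114.1 (day 90). MeHg birds had 72.8, 177 and 223 (day 6), 36.6, 107.6 and 218 (day 18), 50.7, 95.6 and 236 (day 35), and 34.7, 96.4 and 220 (day 90). A pair of control birds, at day 35 and day 90, nearly lacked the transcript, and the groups overlapped at each age. These birds both carried the title code C6, whose 3 birds had a median of 2.06 normalised counts. Without code C6 the difference was 0.95. The call was lost with 1 mean per title code (log2 difference 1.18; limma, adjusted p = 0.111), without day 6 (adjusted p = 0.119) and without day 18 (adjusted p = 0.0837), and the gene's own correlation within codes was 0.444. MeHg birds were higher in 7 of 7 plates, by 0.92 to 1.63.

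ENSTGUG00000006464 had the largest fall by the same rule, -2.19 ± 0.455 on the log2 scale (SE; limma, adjusted p = 0.004). Control birds had lowest, median and highest values of 34.7, 95.6 and 212 normalised counts (day 6), 10.2, 124.9 and 315 (day 18), 16.9, 366 and 835 (day 35), and 33.7, 368 and 1721 (day 90). MeHg birds had 23.7, 59.1 and 70.6 (day 6), 3.33, 18.5 and 303 (day 18), 6.30, 23.04 and 288 (day 35), and 9.81, 26.7 and 389 (day 90). The control median was higher at day 35 and day 90 than at day 6, while the MeHg median was lower at those ages than at day 6. Most MeHg birds were low and a few were as high as controls: 5 of 35 exceeded 100 normalised counts, against 27 of 38 control birds. Controls were not uniform either. The 6 birds of code C10 had a median of 39.5 (range 14.3 to 333) and the 1 bird of code C20 had 10.2. The pair of birds of code C16 had a median of 1278. Without day 90 the call was lost (log2 difference -1.91; limma, adjusted p = 0.0655). MeHg birds were lower in 7 of 7 plates, by between -3.62 and -1.11.

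ENSTGUG00000020603 fell by 1.72 on the log2 scale (SE 0.44; limma, adjusted p = 0.03). Control birds had lowest, median and highest values of 8.99, 41.2 and 174 normalised counts (day 6), 29.2, 110.7 and 404 (day 18), 22.4, 88.3 and 236 (day 35), and 12.6, 125.96 and 288 (day 90). MeHg birds had 0.883, 7.48 and 47.98 (day 6), 10.25, 62.7 and 142.5 (day 18), 0, 37.45 and 88.95 (day 35), and 1.14, 69.4 and 115.8 (day 90). The groups overlapped at each age, and the MeHg median was the lower at each. Pooled over the ages, the medians of 66.9 in controls and 48.1 in MeHg birds lay closer than the fitted difference. The pooled medians do not allow for age, and the treatments held unlike numbers of birds per age. Very low birds were more common with MeHg: 8 of 35 MeHg birds were under 10 normalised counts, against 1 of 38 controls. The 6 birds of code Hg13 had a median of 1.94. The call was lost in 7 of 20 fits with a title code left out, most of all without Hg13 (log2 difference -1.25; limma, adjusted p = 0.106). It was also lost with 1 mean per code (adjusted p = 0.209), with extraction batch in place of plate (0.0918), on birds with a RIN (0.154), and without day 6, 18 or 35 (0.235, 0.0716 and 0.111). MeHg birds were lower in 7 of 7 plates, by between -2.76 and -0.98.

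**Figure D1:**
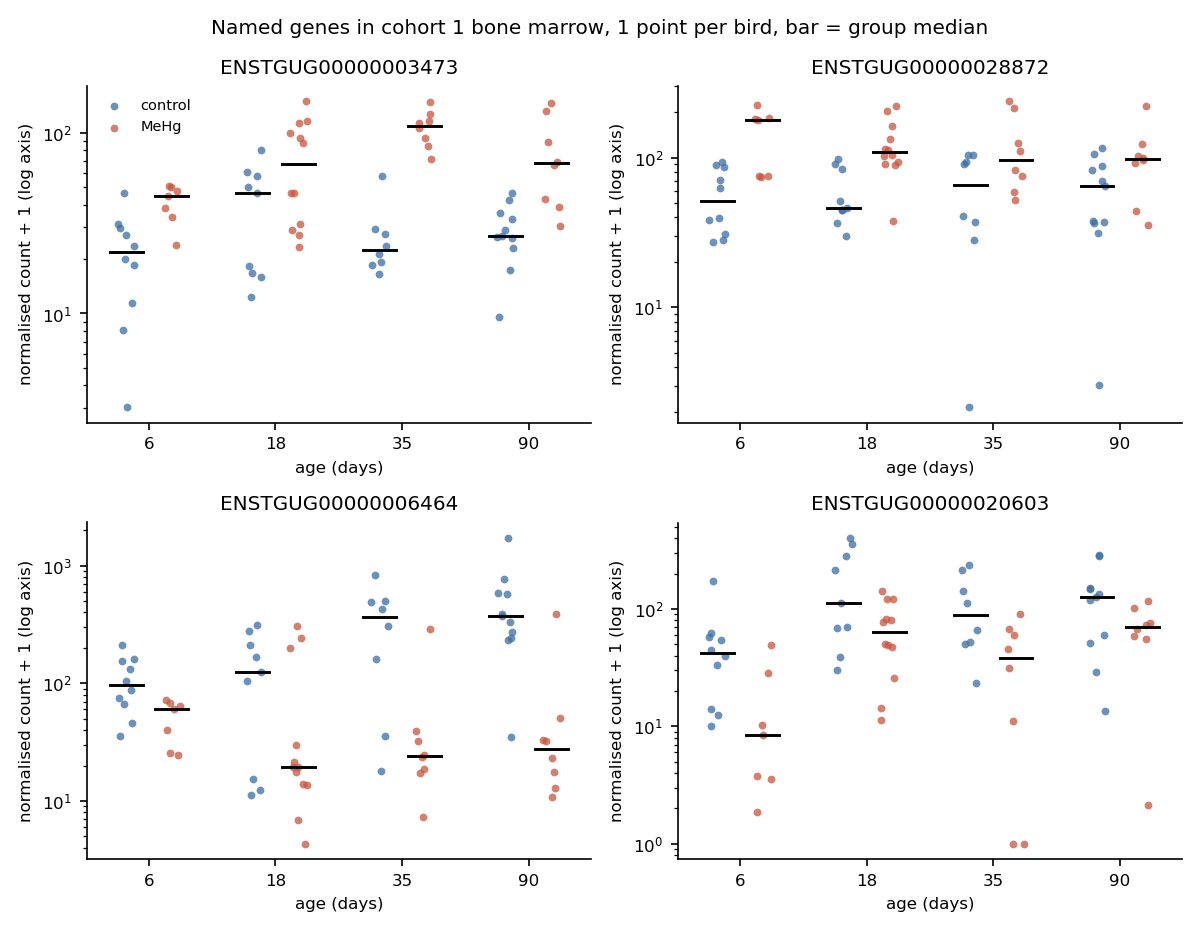
Normalised count plus 1 on a log axis against age in days for the 4 genes, with 1 point per cohort 1 bird, control in blue and MeHg in red, and bars at group medians. At day 35 the MeHg birds of ENSTGUG00000003473 all lie above the highest control at 56.6 normalised counts, and most MeHg birds of ENSTGUG00000006464 lie low with single birds as high as controls.

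A mean was also formed for each title code after age, sex and plate were removed, which gives 9 MeHg and 11 control values per gene. For ENSTGUG00000003473 the code means averaged 5.90 ± 0.55 (SD, n = 9) with MeHg and 4.68 ± 0.58 (SD, n = 11) in controls on the log2 scale, a difference of 1.22 (two-sided exact permutation test over codes, p = 0.00025, adjusted over 4 genes 0.001). All 9 MeHg codes lay above the control median, and 1 lay within the control range. For ENSTGUG00000028872 the averages were 6.70 ± 0.41 (SD, n = 9) and 5.55 ± 1.07 (SD, n = 11; exact permutation p = 0.00109, adjusted 0.00218), and 5 MeHg codes lay within the control range. For ENSTGUG00000006464 they were 5.27 ± 1.14 (SD, n = 9) and 7.29 ± 1.72 (SD, n = 11; exact permutation p = 0.00872, adjusted 0.0116), with all 9 MeHg codes below the control median and all 9 within the control range. For ENSTGUG00000020603 they were 5.06 ± 1.46 (SD, n = 9) and 6.18 ± 1.00 (SD, n = 11), where 6 MeHg codes lay below and 3 above the control median and the test did not pass (exact permutation p = 0.0533, adjusted 0.0533). These genes were chosen on the same birds, so the tests over codes are not independent evidence, and their p-values are adjusted over 4 genes alone. With 1 mean per code and adjustment over all genes, limma called ENSTGUG00000003473 (adjusted p = 0.0189) and ENSTGUG00000006464 (adjusted p = 0.0314), and not ENSTGUG00000028872 (0.111) or ENSTGUG00000020603 (0.209).

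**Figure D2:**
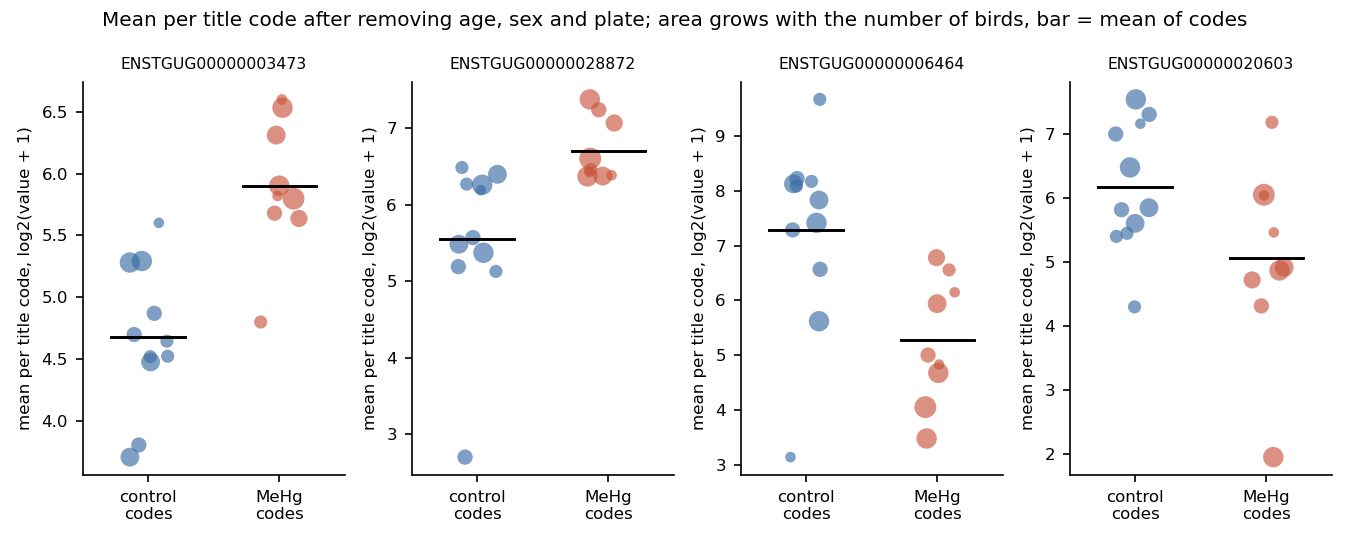
Mean per title code on the log2(value + 1) scale after removing age, sex and plate, for 11 control codes in blue and 9 MeHg codes in red, with area growing with the number of birds and bars at the mean of codes. The MeHg codes of ENSTGUG00000003473 lie between 4.80 and 6.60 and the control codes between 3.71 and 5.602, while the codes of ENSTGUG00000020603 overlap widely.

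At single ages few genes passed. The same fit called 7 genes at day 6 (0.0499% of those tested; 4 higher, 3 lower), 21 at day 18 (0.15%; 11 higher, 10 lower), 2 at day 35 (0.0142%; both higher) and 0 at day 90. At an unadjusted p under 0.05 limma had 764, 1423, 991 and 942 genes, or 5.44%, 10.1%, 7.06% and 6.71%. With birds taken as independent limma called 4, 52, 4 and 0 genes (0.0285%, 0.37%, 0.0285% and 0%), and the edgeR quasi-likelihood test 5, 55, 7 and 0. The counts turned on single birds and codes. At day 6 there were 0 calls without code C19, Hg7 or Hg11, or without MeHg bird 4 or 6 of that age. At day 18 there were 7 without code C19 or Hg15, or without control bird 8 of that age. At day 35 such fits gave 0 to 8 calls, with 0 for example without MeHg bird 1 of that age or without code C12.

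At day 6 ENSTGUG00000006098 was higher with MeHg, with lowest, median and highest values of 199, 314 and 541 normalised counts against 75.9, 163.7 and 298 in controls (log2 difference 1.19 ± 0.25 SE; limma, adjusted p = 0.0359). The groups overlapped between 199 and 298. The call at day 6 was lost in 8 of 20 fits with a title code left out, most of all without Hg13 (limma, log2 difference 0.97, adjusted p = 0.553). It was lost in 10 of 73 fits with a bird left out. Over the mean of the ages ENSTGUG00000006098 was called as well (limma, log2 difference 0.52 ± 0.13 SE, adjusted p = 0.0184). In cohort 2 it did not pass (0.10 ± 0.10 SE, adjusted p = 0.747). ENSTGUG00000021838 was lower at that age, with 9.14, 54.03 and 290 normalised counts against 160, 229 and 315 (log2 difference -2.21 ± 0.41 SE; limma, adjusted p = 0.0101). The MeHg birds spread more widely than controls, and the groups overlapped. By edgeR ENSTGUG00000021838 did not pass at day 6 (log2 difference -1.74, adjusted p = 0.222). Leaving out a title code lost its limma call at day 6 in 4 of 20 fits (highest adjusted p = 0.103). Leaving out a bird lost it in 3 of 73 fits (highest adjusted p = 0.105). Over the mean of the ages ENSTGUG00000021838 was called (limma, log2 difference -0.80 ± 0.21 SE, adjusted p = 0.0326). It was also called lower with MeHg in cohort 2 (-1.25 ± 0.26 SE, adjusted p = 0.00345).

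At day 18 ENSTGUG00000001876 was higher with MeHg, with 15.6, 61.7 and 127.8 normalised counts against 9.16, 21.997 and 40.2 in controls (log2 difference 1.56 ± 0.35 SE; limma, adjusted p = 0.0399). Its control median went from 7.68 at day 6 to 106.4 at day 35 and 227 at day 90. It was no longer called at day 18 when any of 11 of the 20 title codes was left out (highest adjusted p = 0.132). Over the mean of the ages ENSTGUG00000001876 did not pass (limma, log2 difference 0.52 ± 0.23 SE, adjusted p = 0.314). Its difference at day 6 had the other sign (-0.38 ± 0.45 SE). In cohort 2 it did not pass either (limma, 0.075 ± 0.23 SE, adjusted p = 0.931). ENSTGUG00000028058 was lower, with 41.1, 87.8 and 243 normalised counts against 77.9, 357 and 654 (log2 difference -1.85 ± 0.43 SE; limma, adjusted p = 0.046). The latter was also called over the mean of the ages (log2 difference -1.41 ± 0.27 SE, adjusted p = 0.0019), and at day 18 it passed in 7 of 20 fits with a title code left out.

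Some further genes are named after their values were seen, to account for small counts. The pair called at day 35 were ENSTGUG00000004149 and ENSTGUG00000026316. ENSTGUG00000004149 had lowest, median and highest values of 15.7, 90.02 and 136.04 normalised counts in MeHg birds and 0.942, 3.85 and 10.4 in controls at day 35, with no overlap (log2 difference 3.82 ± 0.77 SE; limma, adjusted p = 0.0485). At day 18 controls reached 251, against a control median of 6.20. Over all ages 2 of 38 control birds exceeded 100, both of day 18 and both of title code C10. In the other control codes no bird exceeded 19.95. The transcript was thus abundant in some control birds as well, all of 1 code. It was also called at day 6, where the MeHg median was 145.7 and the control median 5.38. ENSTGUG00000026316 had 9.45, 22.5 and 34.6 against 0, 1.51 and 16.2 normalised counts at day 35 (log2 difference 2.77 ± 0.53 SE; limma, adjusted p = 0.0311). Over the mean of the ages ENSTGUG00000004149 was called in cohort 1 (limma, log2 difference 2.98 ± 0.44 SE, adjusted p = 2.77e-05). In cohort 2 that mean did not pass (limma, 0.75 ± 0.44 SE, adjusted p = 0.473). ENSTGUG00000026316 was called over the mean in cohort 1 (limma, 1.62 ± 0.30 SE, adjusted p = 0.00103). It was not called in cohort 2 (0.49 ± 0.305 SE, adjusted p = 0.503). The difference between cohorts passed for neither gene (limma on both cohorts, adjusted p = 0.0859 and 0.342). Besides ENSTGUG00000004149, only ENSTGUG00000020470 was called at a pair of ages. It was lower with MeHg at day 6 (limma, log2 difference -1.54 ± 0.33 SE, adjusted p = 0.0365) and at day 18 (-1.15 ± 0.26 SE, adjusted p = 0.0368). Its medians at day 90 were 20.7 with MeHg and 56.2 in controls. It passed neither at day 90 nor at day 35 (limma, adjusted p = 0.221 and 0.646). Over the mean of the ages it was called in cohort 1 (limma, log2 difference -1.13 ± 0.16 SE, adjusted p = 2.77e-05) and not in cohort 2 (-0.04 ± 0.17 SE, adjusted p = 0.952). The correlation of this gene within title codes was 0.624, above the 0.117 shared by all genes in the fit.

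Whether the MeHg difference varied between the ages was tested with limma on 3 degrees of freedom, and 0 genes passed. At an unadjusted p under 0.05 there were 610 (4.34% of genes tested), and the lowest adjusted p was 0.252. With birds taken as independent 0 genes passed as well. Of the 190 genes, 188 had the same direction at all 4 ages, which choosing them on the mean of these ages favours, and 23.7% of all genes did. Genes were therefore also called on 3 ages and looked up at the age left out, whose birds took no part in the choice. With day 6 left out 45 genes were called, and 44 of them (97.8%) had the same direction at day 6, against 60.4% of all genes. With day 18 left out 62 of 64 had it (96.9%, against 57%), with day 35 left out 78 of 79 (98.7%, against 61.2%), and with day 90 left out all but 6 had it (94.5%, against 58.2%). The median difference at the age left out was 0.59, 0.65, 0.61 and 0.48 on the log2 scale, against 0.84, 0.85, 0.79 and 0.89 over the ages that chose the genes. The libraries were other ones, but title codes run across ages, so these values do not separate treatment from code.

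In males alone 42 genes were called and in females alone 10, with 26 and 10 of them among the 190. The test of MeHg by sex called 0 genes in limma, with 558 (3.97% of genes tested) at an unadjusted p under 0.05, and 0 with birds taken as independent. ENSTGUG00000003473 differed by 1.51 in males on the log2 scale, where it passed (limma, adjusted p = 0.0384), and by 1.03 in females, where it did not (adjusted p = 0.303). ENSTGUG00000028872 differed by 0.49 in males and 1.95 in females, and passed in neither (adjusted p = 0.492 and 0.0809). Its difference between the sexes was -1.41 ± 0.46 (SE; male minus female), with an unadjusted p of 0.00333 and an adjusted p of 1. ENSTGUG00000006464 differed by -2.03 in males and -2.20 in females (limma, adjusted p = 0.245 and 0.243).

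The other cohort, with 40 control and 48 MeHg libraries, none of them used for cohort 1, gave 228 genes (1.62%), 85 of them lower, in a fit of the same form, and 398 (2.83%) with birds taken as independent. Of the 190 genes of cohort 1, 60.5% had the same direction in cohort 2, against 55.8% of all genes. Their median difference in cohort 2, taken in their cohort 1 direction, was 0.07 on the log2 scale, against 0.02 for all genes tested. In cohort 1 their median was 0.70, a value raised by choosing the genes in those same birds. Both cohorts called 12 genes in the same direction, 6.32% of the cohort 1 list and 5.26% of the cohort 2 list, and 3 in opposite directions. Between the cohorts the MeHg differences correlated across all genes, which are not independent replicates, at 0.147 (Pearson) and 0.14 (Spearman).

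**Figure D3:**
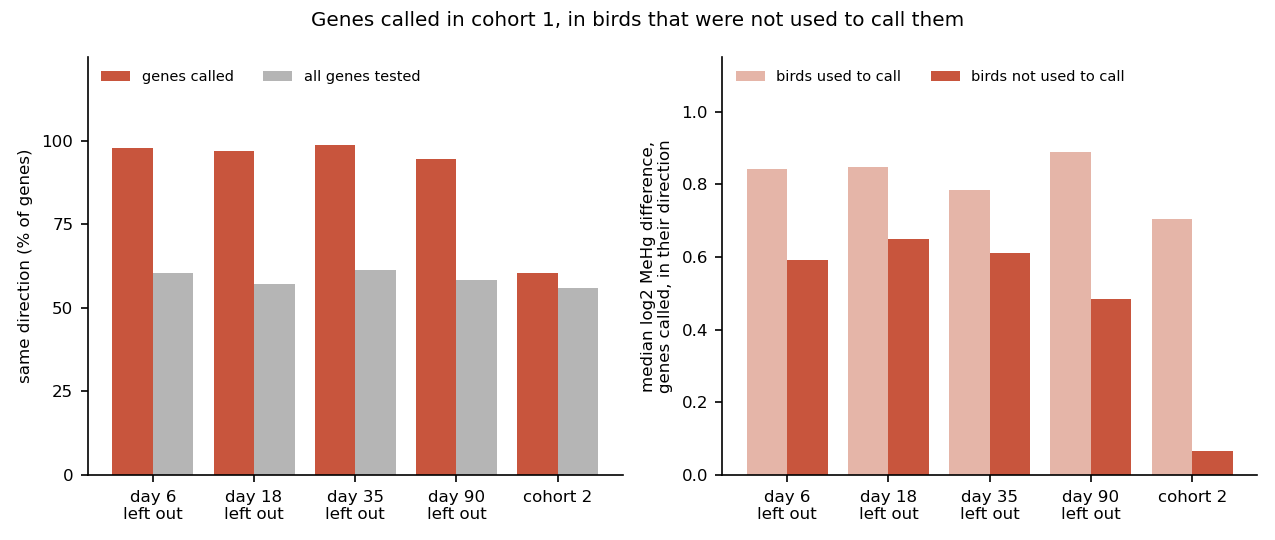
Left, percent of genes with the same direction in birds that were not used to call them, for genes called in cohort 1 in red and all genes tested in grey. Right, median log2 MeHg difference of the called genes in the birds used to call them and in the birds not used; it is 0.48 to 0.65 at ages left out of cohort 1 and 0.07 in cohort 2.

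ENSTGUG00000003473 was higher with MeHg in cohort 2 as well (log2 difference 0.93 ± 0.22 SE; limma, adjusted p = 0.00963), with medians of 79.6 and 36.004 normalised counts in MeHg and control birds there and 67.7 and 25.3 in cohort 1. ENSTGUG00000028872 differed by 0.43 ± 0.27 (SE, adjusted p = 0.508) in cohort 2, ENSTGUG00000006464 by -0.48 ± 0.41 (SE, adjusted p = 0.674) and ENSTGUG00000020603 by 0.05 ± 0.30 (SE, adjusted p = 0.967). For ENSTGUG00000006464 the medians in cohort 2 were 167.9 normalised counts in MeHg birds and 232 in controls, against 23.7 and 187 in cohort 1, so the cohorts stood further apart in MeHg birds than in controls. The difference between cohorts did not pass for any of the 4 genes (limma on the birds of both cohorts; adjusted p = 0.828, 0.541, 0.244 and 0.107 in the order given).

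The test of MeHg by cohort called 0.805% of genes, 54 with a higher and 59 with a lower MeHg difference in cohort 1 than in cohort 2. With birds taken as independent it called 388 (2.76%), and 79 (0.563%) where plate was exchanged for extraction batch. Of the 190 genes of cohort 1, 47 (24.7%) were among those called. The signs of the cohorts were opposite in 94.7% of the called genes, a share that selection on a large difference raises.

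ENSTGUG00000002789 was higher with MeHg in cohort 1 (log2 difference 0.35 ± 0.07 SE; limma, adjusted p = 0.00103) and lower in cohort 2 (-0.22 ± 0.06 SE, adjusted p = 0.0259; adjusted p of the difference 2.45e-05). In cohort 1 its medians were 398 normalised counts in MeHg birds and 294 in controls at day 6, 344 and 261 (day 18), 292 and 228 (day 35), and 249 and 209 at day 90. Medians were lower at later ages in both treatments, and the MeHg median was the higher at each age. ENSTGUG00000023659 was higher with MeHg in cohort 1 (0.64 ± 0.13 SE, adjusted p = 0.00218), and its value in cohort 2 was -0.32 ± 0.09 (SE, adjusted p = 0.0623; adjusted p of the difference 7.57e-05). In cohort 1 its medians were 461 normalised counts in MeHg birds and 299 in controls at day 6, 321 and 215 (day 18), 266 and 101.99 (day 35), and 221 and 170.9 (day 90). The MeHg median was the higher at each age and the groups overlapped at each, and at day 90 the highest control, at 325, stood above every MeHg bird of that age. The log2 difference was 0.97 at day 35 and 0.32 at day 90, and it passed at neither (limma, adjusted p = 0.0987 and 0.806). In cohort 1 the correlation of this gene within title codes was 0.489, above the 0.117 shared by all genes in that fit.

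The gene ENSTGUG00000029089 fell with MeHg in cohort 1 (log2 difference -0.71 ± 0.14 SE; limma, adjusted p = 0.00181) and higher in cohort 2 (0.38 ± 0.11 SE, adjusted p = 0.0455; adjusted p of the difference 2.45e-05). In cohort 1 its medians were 52.2 normalised counts in MeHg birds and 101.1 in controls at day 6, 84.5 and 131.97 (day 18), 88.6 and 124.9 (day 35), and 75.04 and 157.8 (day 90). The MeHg median was the lower at each age, and the groups overlapped at each. ENSTGUG00000001078 differed by -0.52 ± 0.17 in cohort 1, where it did not pass (SE, adjusted p = 0.112), and was higher in cohort 2 (0.81 ± 0.17 SE, adjusted p = 0.00282; adjusted p of the difference 0.00118). Its medians were 197 and 287 normalised counts in MeHg and control birds of cohort 1 and 404 and 249 in those of cohort 2. The 3 genes called in both cohorts in opposite directions were ENSTGUG00000002789, ENSTGUG00000029089 and ENSTGUG00000001491, the last named after its values were seen, with 0.67 ± 0.15 in cohort 1 (SE, adjusted p = 0.00741), -0.60 ± 0.16 in cohort 2 (SE, adjusted p = 0.0337) and medians of 52.8 with MeHg and 90.6 in controls of cohort 2.

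**Figure D4:**
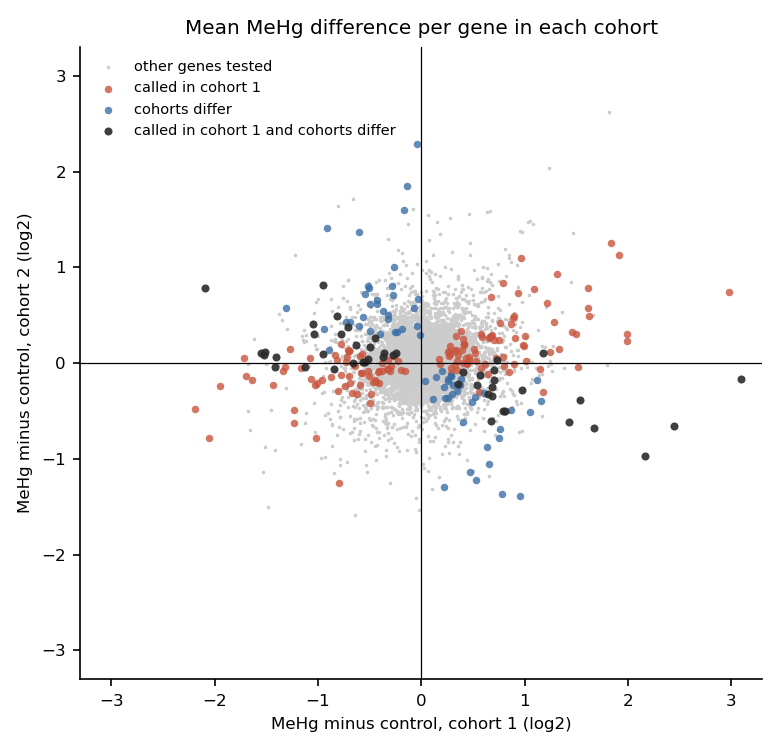
Mean log2 MeHg difference of each tested gene in cohort 1 (horizontal) and cohort 2 (vertical), with the 190 genes called in cohort 1 and the genes whose difference varied between cohorts in colour. The genes called in cohort 1 spread on both sides of 0 on the vertical axis, with a median of 0.07 in their cohort 1 direction, and cohort 2 called 12 of them with equal sign and 3 with reversed sign.

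Among libraries with a column, title codes of the same name occur in both cohorts for 11 of the 20 codes. The labels do not say whether the same parents or cages are meant. Among the 190 genes, 130 (68.4%, against 56.6% of all genes) had the cohort 1 direction in the 21 control and 19 MeHg birds of cohort 2 with such a code, with a median of 0.13 in that direction. In the 19 control and 29 MeHg birds of cohort 2 with other codes 57.4% had it (against 53.4% of all genes), with a median of 0.04. This division was chosen after the data were seen, and the difference between these sets of birds was not tested. Both sets were fitted with sex as the only covariate and birds taken as independent. Their shares are therefore not directly comparable with that of the fit of all cohort 2 birds.

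**Figure D5:**
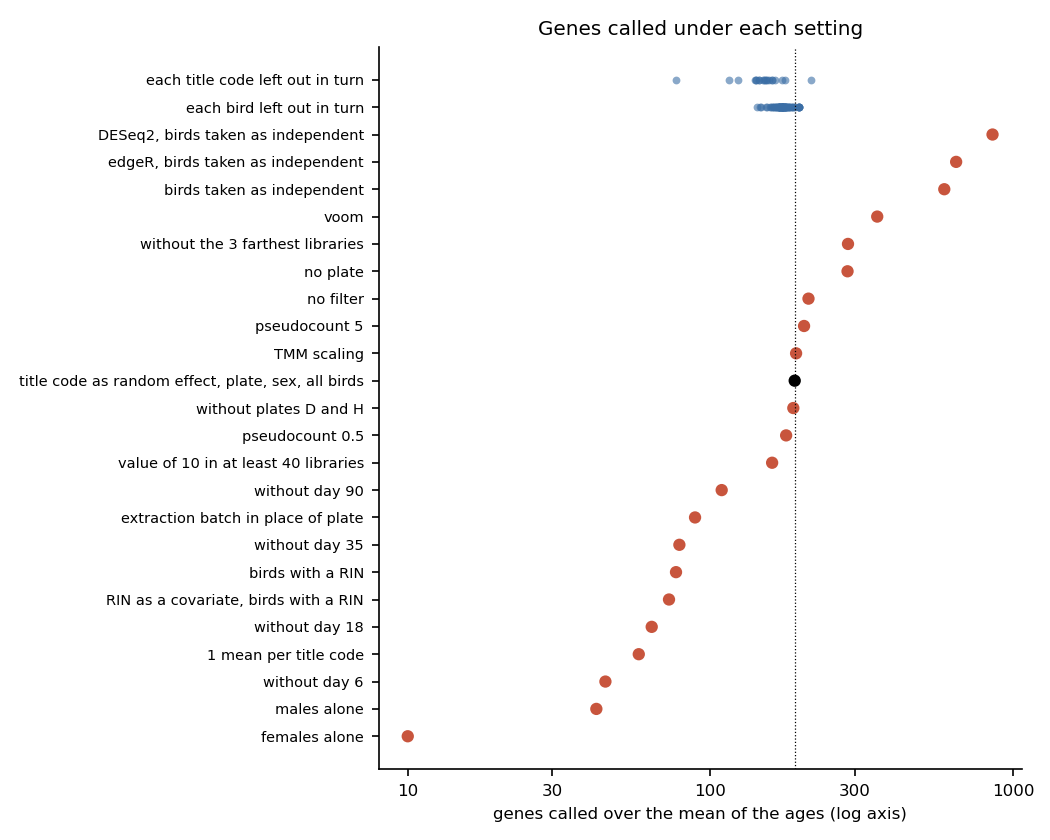
Genes called over the mean of the ages in cohort 1 on a log axis under each setting, with the reported fit at 190 in black, other settings in red, and fits with 1 bird or 1 title code left out in blue. The count runs from 10 in females alone to 856 by DESeq2 with birds taken as independent, and leaving out code Hg13 gives the lowest of the blue points, at 77.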

How the data were processed

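RNA came from whole bone marrow and, per the labels' protocols, libraries were made from oligo(dT)-captured messenger RNA with NEBNext Ultra II reagents. Tools in the submitters' processing notes are Subread, featureCounts, R 4.0.2 and DESeq2 1.30.1. No source used here gives the genome build, annotation or strand setting, so overlapping, antisense or near-identical genes may share reads. The deposited values are a normalised signal in which the authors scaled each library's read counts by its size factor: 100% of values were whole within a relative tolerance of 1e-06 once divided by the library's lowest value, and the factors (0.574 to 1.75) equal the median of ratios to 8.8e-15. Of 78 libraries labelled cohort 1, 5 have no column and were not analysed here; sex is unknown for 4 of them. No pair within groups came near sampling noise (lowest chi-square per gene 13.4).

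Genes with at least 10 in at least 15 of 161 libraries were tested with limma 3.58.1 (R 4.3.3; trend, robust variances, Benjamini-Hochberg) on log2(value + 1), with 8 treatment-by-age groups, sex and plate. The title code within cohort was a random effect through duplicateCorrelation, with 1 consensus correlation for all genes of a fit. At an age left out, and in cohort 2 birds divided by shared title codes, the covariate was sex alone and birds were taken as independent. Fits were tested on simulated data, with resemblance within title codes set to the same share of each gene's spread beyond read sampling. The simulation does not speak for genes whose own correlation within codes is higher. Alternatives used edgeR 4.0.16 and DESeq2 1.42.0 on recovered reads. Named genes pass the threshold with an average of at least 5 on the log2 scale: the 2 largest differences each way over the mean, 1 each way by age, and the 2 smallest p each way by cohort. Gene lists by symbol could not be used. The birds, tests and lists were chosen with earlier results of these data known.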

Additional observations from a re-analysis of the deposited data

Results flagged for a closer look

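For the named genes, 72 treatment-by-age groups of 7 to 10 birds were searched for a bird far from the others (Dixon's ratio of the gap to the range). Larger groups, MeHg at day 18 (12 birds) and control at day 90 (11 birds), were not searched. Such a bird was found in 9 of the 72 groups, in each case the highest of its group. The limits used flag about 5% of groups of normally distributed values. The counts were taken without a log, so 5% need not be their chance rate, and whether 9 exceeds chance was not tested. In ENSTGUG00000006464 it was a high MeHg bird at day 35 (ratio 0.886; 287.6 normalised counts, next 38.3) and at day 90 (0.895; 389.4, next 49.7). In ENSTGUG00000028058 it was a high MeHg bird of day 6 (0.866; 466.1, next 84.7) and a high control of day 6 (0.474). High controls stood apart in ENSTGUG00000003473 at day 35 (0.685), in ENSTGUG00000020603 at day 6 (0.682) and in ENSTGUG00000002789 at day 6 (0.525) and day 18 (0.516). In ENSTGUG00000021838 a high MeHg bird of day 90 did (0.599).

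The MeHg difference of cohort 1 minus that of cohort 2 passed its test (limma on both cohorts, title code as a random effect) in 5 of the genes named by rule, and in 2 named after their values were seen, ENSTGUG00000001491 (1.24, adjusted p = 0.000587) and ENSTGUG00000020470 (-1.13, adjusted p = 0.00935). Among those named by rule it was 0.58 for ENSTGUG00000002789 and 0.935 for ENSTGUG00000023659. It was -1.10 for ENSTGUG00000029089, -1.27 for ENSTGUG00000001078 and -1.39 for ENSTGUG00000028058. In the last of these the medians were 87.6 and 288 normalised counts in MeHg and control birds of cohort 1, and 86.999 and 86.7 in cohort 2 (adjusted p of the difference 0.0133). The other genes in this list named by rule were chosen by their p in this same test, so their passing was fixed by the choice. ENSTGUG00000001491 was chosen for its opposite calls in the cohorts. Among genes named by rule for the mean or for a single age, only ENSTGUG00000028058 passed.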

How the results depend on the processing

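Counts are given as percent of genes tested. Over the mean of the ages 1.35% were called, against 4.22% with birds taken as independent, 4.62% by edgeR and 6.10% by DESeq2 on that footing, 2.54% by voom and 0.413% with 1 mean per title code. The share was 0.634% with extraction batch in place of plate, 0.548% on birds with a RIN and 0.52% with RIN added there. It was 0.32%, 0.456%, 0.563% and 0.776% without day 6, 18, 35 or 90, and 0.299% in males and 0.0712% in females alone. Subsets hold fewer birds; other causes were not tested. With 1 bird or title code left out the share ranged from 0.548% (77 genes, without code Hg13) to 1.53%; codes C4 and C6 each moved it by over 1.5 times. Such fits gave 0 to 0.0641% at day 6, 0.0499% to 0.292% at day 18, 0 to 0.057% at day 35 and 0 to 0.0142% at day 90. With birds taken as independent day 6 had 0.0285%, day 18 0.37% and day 35 0.0285%. By edgeR day 18 had 0.392% and day 35 0.0499%, and without the 3 farthest libraries, chosen after the data were seen, day 18 had 0.328%. MeHg by cohort gave 2.76% and cohort 2 2.83% with birds as independent. The 4 genes of the mean kept their direction in 22 alternatives; ENSTGUG00000003473 passed in 21 of them, ENSTGUG00000006464 in 19, ENSTGUG00000028872 in 17 and ENSTGUG00000020603 in 13. No paired analysis was possible because replicate numbers follow accession order and pair no birds.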
